A study of Homo sapiens with 12 samples.

Results

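Molecular chaperones were read out in the RNA of K562 cells with and without resistance to imatinib (IM) and with and without lycorine. The set held 36 genes, chosen by symbol, of the 19447 in the count table: 15 heat-inducible genes, 8 constitutive cytosolic chaperones and cochaperones, 3 mitochondrial chaperones, 2 heat shock factors and 8 subunits of the TRiC chaperonin. K562, a human line from chronic myeloid leukemia, carries the BCR-ABL kinase, and K562/IM is a derivative grown resistant by stepwise increases of IM and kept in 5 µM. Lycorine, an alkaloid of the Amaryllis family, was given at 6 µM to the K562+L and K562/IM+L groups, so that every group except K562 and K562+L also had a history of IM. There were 3 libraries in each of 4 groups. The sources used here do not say whether these came from separate cultures, so that each p-value measures only the spread between these libraries, which may be technical. They also do not give the length of exposure to lycorine for the sequenced cells, and each resistance state was represented by a single line.

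Heat shock proteins of the HSP70 and HSP90 families bind unfolded or immature proteins and release them in cycles driven by ATP. When unfolded proteins accumulate, heat shock factor 1 (HSF1) is set free, binds GAA repeats called heat shock elements and raises the transcription of inducible chaperones within minutes. TRiC is a stacked-ring chaperonin of the cytosol that folds newly made actin and tubulin, and HSP90 keeps many kinases, BCR-ABL among them, in a usable form.

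Counts per library ran from 75093844 to 107344598, and levels are given in CPM, counts scaled to the TMM-normalized library. All 10 markers of erythroleukaemic K562 cells exceeded 1 CPM in every group. Their sum was 5424 to 8045 CPM in K562, 3848 to 4523 in K562+L, 2496 to 2719 in K562/IM and 31664 to 45152 in those labelled K562/IM+L. The last libraries are titled G2, whereas the study's plots name that group G6, so they are called by their label here and every direction drawn from them rests on it. Of 4 T cell and 4 fibroblast markers, 1 and 3 exceeded 1 CPM in K562/IM, led by CD3D (22.0 CPM) and COL1A2 (17.2 CPM), with summed levels of 21.9 to 23.5 and 19.8 to 24.9 CPM. In the other groups these sums stayed within 0.404 to 2.90 and 0.554 to 1.34 CPM, and their part in the results was not tested. In K562/IM 1 of 4 B cell markers exceeded 1 CPM as well, and 1 of 4 monocyte and 1 of 4 epithelial markers did so in every group. Replicates of a group differed along transcript length and GC content, with rank correlations of a library's deviation with length from -0.64 to 0.70. Low counts also piled up near multiples of 4.

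The letters that HSF1 reads were looked up in the 250 bases before the RefSeq gene starts (GRCh38.p14). A pair of inverted units was searched as GAANNTTC or TTCNNGAA, and 3 units as GAANNTTCNNGAA or TTCNNGAANNTTC, on both strands, the longer letters containing the shorter. Windows were at hand for 32 of the 36 genes, and none was used for CRYAB, HSF1, FKBP4 or CCT6A. The 2-unit letters were in 16 of the 49 windows of these genes (32.7%), against 11.6% of all 35116 windows, and the 3-unit letters in 7 (14.3%), against 0.441%. Among inducible genes the 2-unit letters were in 11 of 22 windows (50%), and among TRiC subunits in 2 of 9 (22.2%) with 0 holding 3 units. They were in 2 of 12 constitutive windows (16.7%) and 1 of 4 mitochondrial windows (25%). The 3-unit letters were in 18.2% of inducible, 16.7% of constitutive and 25% of mitochondrial windows, so they did not set the inducible class apart from these. The following windows are of a textbook inducible gene (HSPA1A, chr6:31815293-31815542, plus strand) and 3 genes that rose in K562+L (CHORDC1, chr11:90223050-90223299, minus strand; HSPA8, chr11:123062137-123062386, minus strand; DNAJA1, chr9:33025023-33025272, plus strand). Capitals mark the matched letters, 5′ to 3′, with the gene start after the last base.
HSPA1A: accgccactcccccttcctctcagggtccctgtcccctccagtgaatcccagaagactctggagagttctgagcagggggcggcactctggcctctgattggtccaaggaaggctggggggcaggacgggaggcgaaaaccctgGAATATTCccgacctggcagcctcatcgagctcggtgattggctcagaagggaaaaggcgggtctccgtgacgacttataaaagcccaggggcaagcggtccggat
CHORDC1: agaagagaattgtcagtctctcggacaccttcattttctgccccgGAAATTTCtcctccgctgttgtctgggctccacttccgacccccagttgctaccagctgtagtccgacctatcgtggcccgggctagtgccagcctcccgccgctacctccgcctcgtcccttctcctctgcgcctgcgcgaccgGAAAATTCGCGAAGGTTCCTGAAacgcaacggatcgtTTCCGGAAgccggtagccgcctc
HSPA8: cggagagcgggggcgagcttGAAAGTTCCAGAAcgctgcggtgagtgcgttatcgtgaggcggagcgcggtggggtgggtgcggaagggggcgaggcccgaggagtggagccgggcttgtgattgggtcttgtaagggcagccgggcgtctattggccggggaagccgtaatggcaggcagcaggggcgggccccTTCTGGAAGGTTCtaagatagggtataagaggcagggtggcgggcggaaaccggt
DNAJA1: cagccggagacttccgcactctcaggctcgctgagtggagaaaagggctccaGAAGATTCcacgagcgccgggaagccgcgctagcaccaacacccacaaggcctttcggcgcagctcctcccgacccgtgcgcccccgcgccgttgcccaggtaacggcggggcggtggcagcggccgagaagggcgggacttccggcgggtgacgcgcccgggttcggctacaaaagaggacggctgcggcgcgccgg
CHORDC1 held 6 matches of 2 units and 3 of 3 units, and HSPA8 held 4 and 2. HSPA1A and DNAJA1 held 1 match of 2 units each. The windows of HSPH1 and BAG3 held no match. The 3-unit letters were also in SERPINH1, which fell in K562+L, and in HSPA6, HSP90AA1, HSP90AB1 and HSPD1, not called there. DNAJB1 and HSPB1, which fell, held the 2-unit letters. UBB, HSPE1, PTGES3, CACYBP and HSF2, which fell, held none, nor did HSPH1 and CCT8, which rose. A match is a description of letters and not of binding.

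In parental K562 the set took 2.57% to 2.68% of all counts. The share was 2.73% to 2.86% in K562+L, 1.99% to 2.04% in K562/IM and 1.21% to 1.23% in libraries labelled K562/IM+L. Per kilobase of transcript, HSP90AB1, the constitutive cytosolic HSP90, had the highest level in K562 (2174 CPM per kilobase), followed by HSPA8, the constitutive cytosolic HSP70 (1311), and HSP90AA1, the inducible HSP90 (901). CCT8 of TRiC was next (678), and HSPA6, an HSP70 that is nearly silent without stress, was lowest (0.602). In K562+L, HSPA8 (2042) stood just above HSP90AB1 (1997). In K562/IM the order was HSP90AB1 (1531), HSP90AA1 (644) and HSPA8 (564). In bulk RNA, fewer cells that express a gene and less of its RNA per cell cannot be told apart.

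The first comparison asked what lycorine did to parental K562. In K562+L some chaperones were higher and some lower, in numbers close to those over all genes. HSPA8 rose to 1.56 times its K562 level, together with the inducible genes CHORDC1, HSPH1 and DNAJA1 and the TRiC subunits CCT2, CCT6A and CCT8. The mitochondrial co-chaperonin HSPE1, the HSP90 cochaperones PTGES3 and CACYBP, and 5 further genes fell. The classical stress genes HSPA1A, HSPA1B and HSPA6 were not called. At an adjusted p under 0.05, 7 of the 36 genes were higher (18.2% of all 12927 genes tested were) and 8 were lower (19% of all genes), in all 15 against 37.3% of all genes. Of the set 0 genes passed a log2 fold change of 1 in size as well, against 2.38% of all genes higher and 4.01% lower. The median log2 fold change of the set was -0.01, against -0.00012 over all genes tested.

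HSPA8 read 3063, 3282 and 3339 CPM in K562 and 4845, 4970.0 and 5275 CPM in K562+L. Every treated library lay above every control, and the log2 fold change was 0.64 (standard error, SE, 0.07; adjusted p = 0.000563 by the quasi-likelihood test of edgeR after Benjamini-Hochberg adjustment). CHORDC1, a zinc-binding cochaperone of HSP90, read 197, 110.5 and 159 CPM in K562 and 284, 300.2 and 319 in K562+L. It had the steepest rise of the set, 1.94-fold, and also a wide spread among its controls, so that its log2 fold change of 0.95 (SE 0.19, adjusted p = 0.00681) ran from 0.76 without K562 library 2 to 1.15 without K562 library 1. DNAJA1, a J-domain partner of HSP70, read 408, 415 and 416 CPM in K562 and 520.2, 558 and 590.3 in K562+L. Its log2 fold change was 0.43 (SE 0.08, adjusted p = 0.00448), and the groups did not overlap. HSPH1, an HSP110 that exchanges the nucleotide of HSP70, read 231, 225 and 201 CPM in K562 and 289.6, 296 and 303 in K562+L. Its log2 fold change was likewise 0.43 (adjusted p = 0.0063) and all treated libraries were higher.

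The other inducible genes were not called as higher. HSPA4L, of the HSP110 family, read 107.1, 88.4 and 74.4 CPM in K562 and 113, 105 and 128 in K562+L, with overlap (log2 fold change 0.36, adjusted p = 0.0827). It was called with DESeq2 (adjusted p = 0.0453) and without K562 library 1 (0.49, adjusted p = 0.0115), while an offset for transcript length and GC content took it to -0.05. HSPA1A, the main stress-inducible HSP70, read 222, 229.8 and 271 CPM in K562 and 255, 236 and 220.3 in K562+L. Its neighbour HSPA1B, which encodes almost the same protein, read 211, 207 and 239.5 against 220.0, 204 and 191, and because the counting is not described the division of reads between this pair is uncertain. Their sum, 433 to 511 CPM in K562 and 411 to 475 in K562+L, overlapped between the groups as each gene did. HSPA6 stayed near the bottom, at 1.04, 1.54 and 1.70 CPM against 1.41, 0.693 and 1.26. BAG3, an HSP70 exchange factor of selective autophagy, read 38.0, 41.9 and 43.9 CPM against 44.6, 43.9 and 42.3. The log2 fold changes of these 4 genes were -0.03, -0.10, -0.35 and 0.08, with standard errors of 0.10, 0.09, 0.33 and 0.09, and none was called.

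DNAJB1, a J-domain protein and a textbook target of HSF1, went the other way. It read 88.6, 101 and 99.8 CPM in K562 and 79.9, 81.5 and 70.7 in K562+L, and its log2 fold change was -0.32 (adjusted p = 0.0335). The small heat shock protein HSPB1, the collagen chaperone SERPINH1 and the ubiquitin gene UBB also fell, with log2 fold changes of -0.75, -0.51 and -0.48 (adjusted p = 0.0196, 0.0196 and 0.0158). In all, 3 of the 15 inducible genes rose, 4 fell and 8 were not called, with a median of -0.10, where 18.2% of all genes were higher and 19% lower. HSP90AA1 read 3564, 3519 and 2407 CPM in K562 and 2517, 2693 and 2894 in K562+L. K562 library 3 lay far below the other two, and without it the log2 fold change went from -0.23 (adjusted p = 0.247) to -0.39 (adjusted p = 0.00856).

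HSPE1, the lid of the mitochondrial chaperonin, read 281, 307 and 349.5 CPM in K562 and 158, 192 and 186 in K562+L. At -0.81 on the log2 scale (SE 0.11, adjusted p = 0.0019) it fell furthest of the set, though with the offset SERPINH1 (-0.46) and PTGES3 (-0.42) fell further than HSPE1 (-0.40). HSPD1, which forms the barrel under that lid, read 1250.1, 1240.3 and 1252 CPM against 1126, 1249 and 1296, and was not called (adjusted p = 0.781). PTGES3, the p23 cochaperone of HSP90, read 755, 806 and 759 CPM against 519.7, 583 and 532, with a log2 fold change of -0.51 (adjusted p = 0.00253). CACYBP, which binds the ubiquitin ligase SIAH1, read 603, 663 and 661 CPM against 470.4, 536 and 498, with a log2 fold change of -0.36 (adjusted p = 0.0117). All treated libraries of HSPE1, PTGES3 and CACYBP lay below their controls. HSP90AB1 read 5644, 5909 and 5883 CPM against 5251, 5274 and 5491, without overlap and without a call (log2 fold change -0.12, adjusted p = 0.119).

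Among TRiC subunits 3 of 8 rose and 0 fell, with a median log2 fold change of 0.20. Of all genes tested 18.2% were higher and 19% lower, and the 1131 genes within the length and GC range of the TRiC subunits had a median of 0.01. CCT2 read 598, 608 and 619 CPM in K562 and 819.5, 885 and 879 in K562+L (log2 fold change 0.50, SE 0.07, adjusted p = 0.00173). TCP1, the alpha subunit, read 840.2, 872 and 867 CPM against 871, 940.1 and 854 and overlapped. HSF1 read 88.9, 111 and 115 CPM against 125, 117 and 105, overlapped and was not called (log2 fold change 0.14), which an offset for transcript length and GC content changed, as given next. HSF2, its relative, fell from 35.1 ± 0.812 CPM to 28.1 ± 1.76 CPM (SD, n = 3; log2 fold change -0.32, adjusted p = 0.0227).

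**Figure D1:**
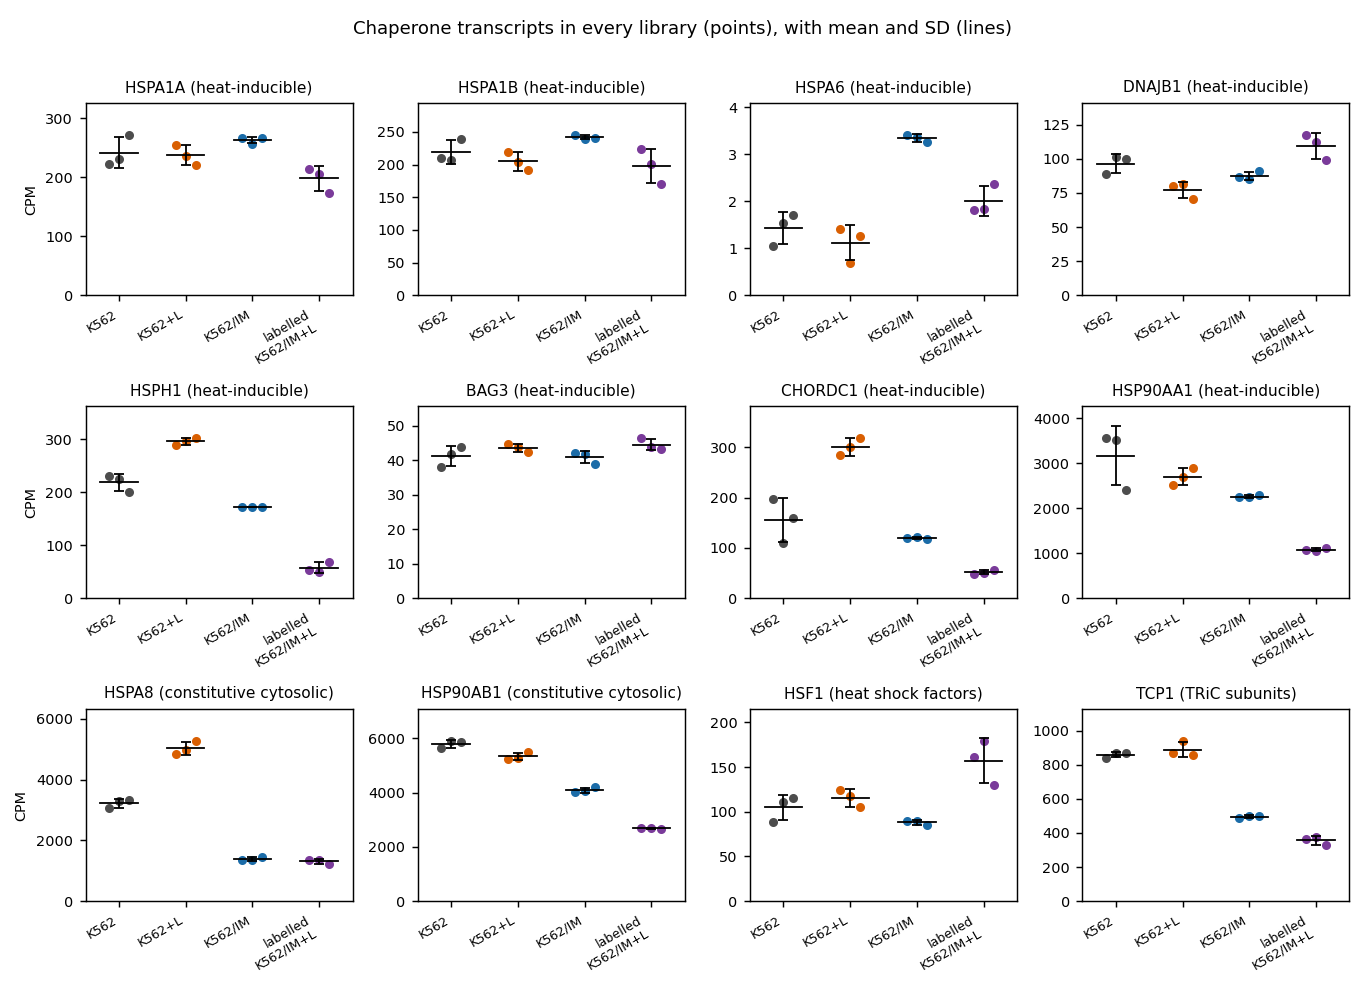
Levels of 12 chaperone genes in CPM (vertical axis, from 0) in the 4 groups (horizontal axis). Points are libraries, the long bar is the mean and the whisker the SD of 3 libraries. HSPA8 and CHORDC1 are higher in every K562+L library than in every K562 library, HSPA1A, HSPA1B and BAG3 overlap between these groups, and HSPH1, CHORDC1 and HSP90AA1 are lowest in libraries labelled K562/IM+L.

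Of these 15 calls, 8 held under all 16 alternatives (HSPA8, CCT2, DNAJA1, HSPH1, CHORDC1, CCT6A, HSPE1 and PTGES3). The others were lost in at least 1 fit that left out K562 library 2, K562 library 3 or any K562+L library, with adjusted p from 0.0506 (SERPINH1 without K562 library 3) to 0.132 (DNAJB1 without K562 library 2), and only 3 lower calls were left without K562 library 2, K562+L library 1 or K562+L library 3. Fold changes of all genes ran with transcript length in this comparison, from a median of -0.30 in the shortest of 5 bins to 0.26 in the longest. With an offset for length and GC content, HSPB1 (909 bases) went from -0.75 to -0.18, UBB (1225 bases) from -0.48 to -0.17, HSPE1 (950 bases) from -0.81 to -0.40 and HSPH1 (5191 bases) from 0.43 to 0.25. HSPA8 read 0.69, CHORDC1 0.80, DNAJA1 0.47 and CCT2 0.58 under that offset. Over all genes 3207 rather than 2359 were then higher, and in the set 12 rather than 7. The genes gained were HSF1 (0.39, adjusted p = 0.000698), CCT3 (0.32), BAG3 (0.20), STIP1 (0.18) and CCT7 (0.17), and FKBP4 was gained as lower (-0.22).

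The second comparison set the resistant line against its parent. In K562/IM most of the set was lower. All 8 TRiC subunits, all 3 mitochondrial chaperones and 7 of 8 constitutive cytosolic genes fell, whereas the inducible genes were divided, 3 higher, 6 lower and 6 not called. HSPA8 fell to 0.430 of its K562 level. Of the 36 genes 25 were lower and 3 were higher at an adjusted p under 0.05, when 27.1% of all 13406 genes tested were lower and 30.1% higher (57.1% in either direction). Past a log2 fold change of 1 in size, 2 were lower (5.29% of all genes) and 1 was higher (13.9%). The median log2 fold change of the set was -0.50, against 0.04 over all genes.

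HSPA8 (chromosome 11, 123057489 to 123063230, GRCh38) read 1343, 1363 and 1461 CPM in K562/IM, below every K562 library. Its log2 fold change was -1.22 (SE 0.06, adjusted p = 5.41e-06 by the edgeR test). TCP1 (chromosome 6, 159778498 to 159789749) read 487, 498 and 501 CPM, again below every K562 library, with a log2 fold change of -0.80 (SE 0.06, adjusted p = 2.39e-05). HSPD1 read 733, 756 and 771 CPM, with a log2 fold change of -0.73 (adjusted p = 3.33e-05). HSP90AB1 read 4009.8, 4074 and 4196 CPM and fell by 0.51 on the log2 scale (adjusted p = 0.00013). The K562/IM libraries of these abundant genes lay close together and did not overlap with K562.

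The 8 TRiC subunits fell by 0.40 (CCT8) to 0.80 (TCP1) on the log2 scale, with a median of -0.56 and no overlap between the groups for any of them. The share of all genes without overlap was not counted. The 1178 genes within the length and GC range of the TRiC subunits had a median of -0.06, and 32.9% of them were lower. With the offset for length and GC content the median of TRiC was -0.45 and 8 of 8 were lower, as they were under every alternative. The constitutive genes had a median of -0.59, with PTGES3 (-0.77), AHSA1, an activator of the HSP90 ATPase (-0.70), and CACYBP (-0.61) after HSPA8. HSPA4, an HSP110 relative, was not called (-0.08, adjusted p = 0.285). The mitochondrial genes had a median of -0.73.

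Some inducible genes did not share this fall, while 6 of 15 did. HSPA1A read 266, 256 and 266 CPM in K562/IM (log2 fold change 0.12, adjusted p = 0.269) and HSPA1B read 245, 239.7 and 241 (0.14, adjusted p = 0.148). DNAJB1 at 86.4, 84.9 and 91.1 CPM and BAG3 at 42.0, 41.8 and 39.0 CPM overlapped with K562. HSPA6 was higher in every K562/IM library, at 3.41, 3.37 and 3.26 CPM (log2 fold change 1.23, SE 0.22, adjusted p = 0.00215), from a very low level. DNAJB4, another J-domain protein, read 22.5, 24.8 and 20.6 CPM in K562 and 37.4, 45.5 and 37.0 in K562/IM (log2 fold change 0.82, adjusted p = 0.000633). SERPINH1, the chaperone of procollagen, read 76.0, 91.5 and 98.6 CPM in K562 and 117, 113 and 121 in K562/IM (log2 fold change 0.40, adjusted p = 0.0115). The collagen gene COL1A2 was at 17.2 CPM in K562/IM. In libraries labelled K562/IM+L COL1A2 averaged 0.0294 CPM while SERPINH1 averaged 134 CPM, and a link between them was not tested.

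The inducible genes that fell were CRYAB, HSPH1, HSP90AA1, HSPB1, DNAJA1 and UBB. HSPH1 read 173, 173 and 173 CPM (log2 fold change -0.34, adjusted p = 0.00569) and HSP90AA1 read 2247, 2239 and 2289.8 (-0.49, adjusted p = 0.019). CHORDC1 read 121, 122 and 118 CPM and overlapped with its scattered controls (-0.37, adjusted p = 0.118), while without K562 library 2 it was called (-0.57, adjusted p = 0.00681). CRYAB, a small heat shock protein, went from 2.15, 2.41 and 2.24 CPM to 0.443, 0.520 and 0.523, a log2 fold change of -2.19 (adjusted p = 0.000123). HSF1 read 90.2, 89.2 and 85.3 CPM, overlapped and was not called (-0.25, adjusted p = 0.0722). It was called without K562 library 1 (-0.39, adjusted p = 0.000869).

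Of these 28 calls, 25 held under all 16 alternatives. HSP90AA1 lost its call without K562 library 2 (-0.40, adjusted p = 0.0701) or any K562/IM library. HSPB1 lost its call without K562 library 2 or 3 or any K562/IM library (adjusted p from 0.086 to 0.116), in the fit of all 12 libraries (0.0526), with the block (0.0521), with upper-quartile scaling (0.0588) and with the length and GC offset (0.0737). UBB lost its call with the offset and the block together (adjusted p = 0.0807). HSPA1A and HSPA1B were called as higher without K562 library 3 (0.21 and 0.20) and with the length and GC offset (0.14 and 0.17), so that 5 genes were then higher. The same offset called HSPA4L (-0.39, adjusted p = 0.000262), CHORDC1 (-0.50), HSF1 (-0.21) and HSPA4 (-0.21) as lower, and the lower genes of the set went from 25 to 28. Over all genes it moved the higher calls from 4029 to 4259 and the lower calls from 3632 to 4444.

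**Figure D2:**
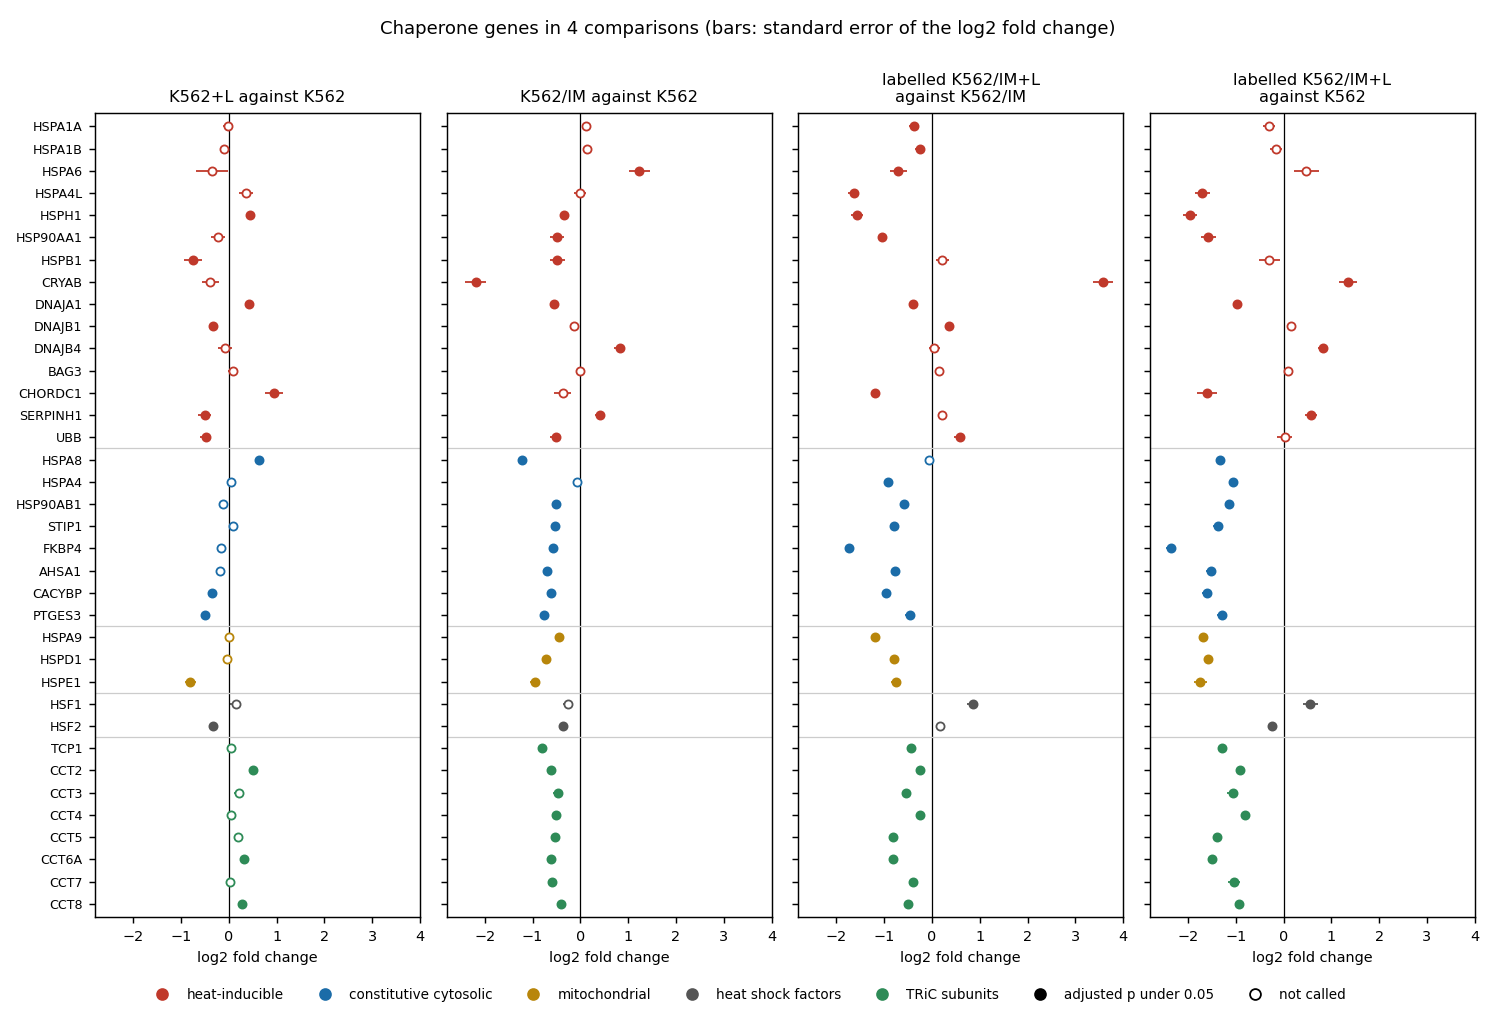
Log2 fold change (horizontal axis) of the 36 genes (vertical axis, by class) in 4 comparisons. Points are estimates, whiskers are standard errors, and filled points have an adjusted p under 0.05. TRiC and constitutive genes lie left of 0 in the K562/IM and labelled K562/IM+L panels, with TRiC medians of -0.56, -0.47 and -1.05, while heat-inducible genes lie on both sides.

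The third comparison concerned lycorine in the resistant line, as labelled. In libraries labelled K562/IM+L most chaperones were lower still than in K562/IM. FKBP4, HSPA9, HSP90AA1, CHORDC1, HSPA4L and HSPH1 each fell by more than 1 on the log2 scale. CRYAB, HSF1, UBB and DNAJB1 rose. HSPA8, which had risen in K562+L, was not called. Of the 36 genes 26 were lower and 4 higher, when 33.6% of all 13727 genes tested were lower and 33.2% higher (66.8% in either direction). Past a log2 fold change of 1 in size, 6 were lower (13.8% of all genes) and 1 was higher (14.7%). The median log2 fold change was -0.48, against -0.01 over all genes.

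FKBP4 (chromosome 12, 2794953 to 2805423), an immunophilin that links HSP90 to steroid receptors, read 206, 213 and 217 CPM in K562/IM and 65.3, 63.7 and 57.3 in the labelled libraries. Its log2 fold change was -1.75 (SE 0.07, adjusted p = 1.62e-06), without overlap. HSPA9 (chromosome 5, 138553756 to 138575724), the HSP70 that pulls proteins into mitochondria, read 760.3, 771 and 773 CPM against 328, 321 and 340.5 (-1.19, adjusted p = 3.76e-06). HSP90AA1 read 1075, 1052 and 1109.9 CPM in the labelled libraries, all below K562/IM (-1.04, adjusted p = 6.86e-06). HSP90AB1 read 2703, 2699 and 2663 CPM there, also below (-0.58, adjusted p = 9.68e-05).

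HSPH1 and CHORDC1, which rose in K562+L, fell here. HSPH1 read 54.0, 48.8 and 68.8 CPM (log2 fold change -1.57, SE 0.13, adjusted p = 3.63e-05) and CHORDC1 read 48.1, 50.4 and 56.8 (-1.19, adjusted p = 1.55e-05). HSPA4L, an HSP110 relative, fell from 89.0 ± 1.63 CPM to 28.1 ± 4.35 CPM (SD, n = 3; -1.63). HSPA8 read 1339.6, 1355 and 1229 CPM and overlapped with K562/IM (-0.06, adjusted p = 0.465). With the length and GC offset HSPA8 was called at -0.12 (adjusted p = 0.0279).

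CRYAB read 6.62, 6.29 and 4.64 CPM, the highest of the 4 groups (log2 fold change 3.58, SE 0.21, adjusted p = 6.8e-06). HSF1 read 162, 179 and 129.7 CPM against 90.2, 89.2 and 85.3, and all labelled libraries were higher (0.86, SE 0.12, adjusted p = 0.00044). UBB read 736, 692 and 537 CPM against 443, 473 and 422 (0.58, adjusted p = 0.00335), and DNAJB1 read 118, 112 and 99.2 CPM (0.35, adjusted p = 0.00592). HSPA1A at 214, 205 and 174 CPM (-0.38, adjusted p = 0.00579), HSPA1B at 224, 200.2 and 171 (-0.26, adjusted p = 0.0473) and HSPA6 at 1.81, 1.84 and 2.37 (-0.71, adjusted p = 0.00885) were lower than in K562/IM without overlap. BAG3 read 46.5, 43.9 and 43.4 CPM (0.15, adjusted p = 0.0875). The inducible class was thus divided again, with 3 higher, 8 lower and 4 not called, where 33.2% of all genes were higher and 33.6% lower.

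All 8 TRiC subunits were lower, by 0.25 (CCT4 and CCT2) to 0.82 (CCT6A) on the log2 scale, with a median of -0.47. TCP1 read 365, 377 and 327 CPM (log2 fold change -0.45, adjusted p = 0.000983). The 1203 genes of like length and GC content had a median of 0.01 and 32.8% were lower. The constitutive genes had a median of -0.78 and the mitochondrial genes of -0.80. Upper-quartile scaling left 7 of 8 TRiC subunits lower, since CCT4 missed the threshold (adjusted p = 0.0639).

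Of these 30 calls, 26 held under all 16 alternatives. CCT4 lost its call without K562/IM library 2 or 3 (adjusted p = 0.0817 and 0.069), HSPA1B without any K562/IM library or labelled library 2 (adjusted p from 0.0937 to 0.122) and with other scalings (0.0597 and 0.119), and without labelled library 3 HSPB1, SERPINH1 and BAG3 were called as higher (0.37, 0.30 and 0.17). Fold changes of all genes ran against length here, from 0.39 in the shortest of 5 bins to -0.35 in the longest. With the length and GC offset HSF1 went to 0.44, UBB to 0.13 (adjusted p = 0.081) and DNAJB1 to 0.14, HSF2 was gained as higher (0.22), HSPB1 turned from 0.22 to -0.55 (adjusted p = 1.5e-05), HSPA1A went to -0.67, HSPA4L to -1.01 and HSPE1 to -1.27. The sum of erythroleukaemic markers moved with this comparison, as given above, and its part was not tested.

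**Figure D3:**
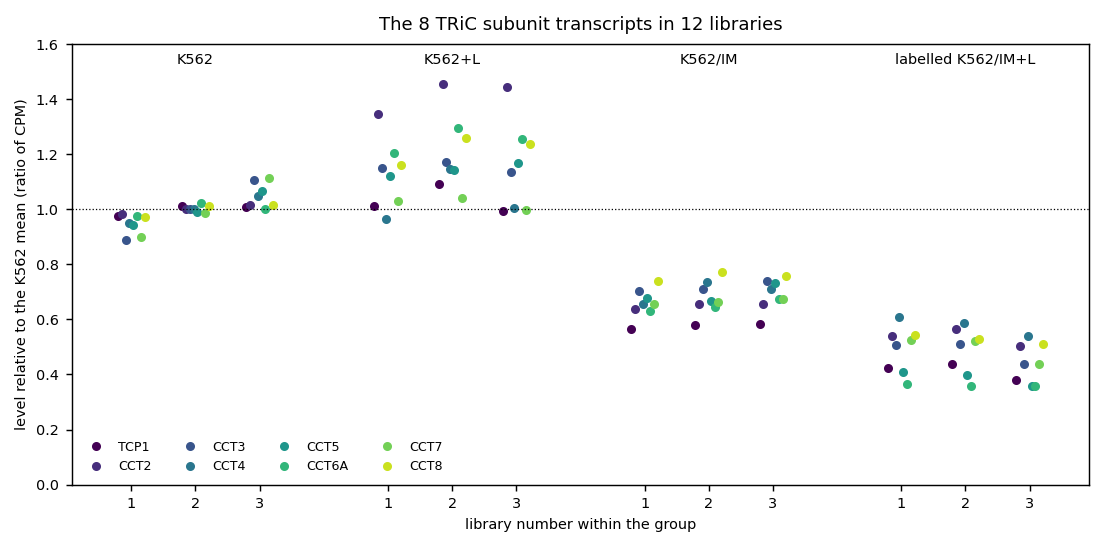
Level of each of the 8 TRiC subunits as a ratio to its K562 mean (vertical axis, from 0) in each of 12 libraries (horizontal axis, by group). Points are single libraries. The 24 values run from 0.890 to 1.11 in K562, 0.964 to 1.45 in K562+L, 0.566 to 0.772 in K562/IM and 0.357 to 0.608 in libraries labelled K562/IM+L.

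Because the label of those libraries is in doubt, they were also set against parental K562. There 25 of 36 genes were lower (27.8% of all 13307 genes tested were) and 4 higher (28.2%), with 56% of all genes called in either direction. Of the set 20 were lower by more than 1 on the log2 scale (8.91% of all genes) and 1 was higher by as much (14.9%). The median of the set was -1.06, against 0.02 over all genes. HSPA9 (log2 fold change -1.68, adjusted p = 9.24e-06), FKBP4 (-2.36, adjusted p = 9.24e-06) and HSPD1 (-1.58, adjusted p = 9.24e-06) had the smallest p, and HSPD1 read 424 CPM in each labelled library. The constitutive genes (8 of 8 lower, median -1.35), the mitochondrial genes (3 of 3, -1.68) and TRiC (8 of 8, -1.05) moved together, and the log2 fold changes of HSPA8, HSP90AB1 and TCP1 were -1.32, -1.13 and -1.29. The 1162 genes of TRiC-like length and GC content had a median of -0.08.

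The inducible class was again mixed against K562, with 3 higher, 5 lower and 7 not called, where 28.2% of all genes were higher and 27.8% lower. DNAJB4, at 42.0, 36.7 and 43.0 CPM, was above every K562 library (0.82, adjusted p = 0.00063), as were CRYAB (1.35, adjusted p = 0.000882) and SERPINH1, at 138, 146 and 118 CPM (0.58, adjusted p = 0.00825). HSPH1 (-1.96), HSPA4L (-1.70), CHORDC1 (-1.61), HSP90AA1 (-1.57) and DNAJA1 (-0.98) fell. HSPA1A (-0.30), HSPA1B (-0.16), HSPA6 (0.47), DNAJB1 (0.17), BAG3 (0.09), HSPB1 (-0.30) and UBB (0.02) were not called. With the length and GC offset HSPA1A (-0.57, adjusted p = 0.000122), HSPA1B (-0.40, adjusted p = 0.00279) and HSPB1 (-0.75, adjusted p = 2e-05) were called as lower, so that 8 inducible genes were lower rather than 5, and HSPA1A was also called in the fit of all 12 libraries (adjusted p = 0.0258). Over all genes the offset moved the lower calls from 3693 to 4464. HSF1 was higher (0.56, adjusted p = 0.0186), but not without K562 library 1 (0.45, adjusted p = 0.0514), labelled library 1 (0.52, adjusted p = 0.0627) or labelled library 2 (0.44, adjusted p = 0.0714), nor with the replicate block (adjusted p = 0.0545). The length and GC offset took HSF1 to 0.18 (adjusted p = 0.0229). HSF2 lost its call whichever library was left out (adjusted p from 0.0561 to 0.118). Of the 29 calls the other 27 held under all 16 alternatives. Upper-quartile scaling moved the median of all genes to 0.17 and the higher share of all calls from 50.4% to 61.3%, with 8 of 8 constitutive, 3 of 3 mitochondrial and 8 of 8 TRiC genes still lower.

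Whether lycorine acted differently on the chaperones of the 2 lines, as labelled, was tested by the interaction term of a fit to all 12 libraries. The effect in K562/IM was lower than that in K562 for 23 genes (31.7% of all 13995 genes tested) and higher for 7 (29.9%), where 61.7% of all genes differed. The difference passed 1 in size for 7 lower genes (16.3% of all genes) and 2 higher (17.5%). The set had a median difference of -0.57, against -0.02 over all genes. TRiC differed in 8 of 8 subunits (median -0.77), since 3 had risen in K562+L and all had fallen in the labelled libraries. HSPA9 (difference -1.22, adjusted p = 1.07e-07), FKBP4 (-1.60, adjusted p = 1.68e-07) and CCT6A (-1.17, adjusted p = 1.95e-07) had the smallest p among the lower genes. Among lower genes CHORDC1 (-2.16), HSPH1 (-2.03) and HSPA4L (-2.02) had the widest gaps, which the length and GC offset took to -1.66, -1.51 and -0.998, beside -1.50 for FKBP4. CRYAB (3.94, adjusted p = 2.29e-07), UBB (1.04, adjusted p = 0.000394) and DNAJB1 (0.65, adjusted p = 0.00067) were on the higher side.

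HSPA8 differed by -0.72 (adjusted p = 2.86e-05), HSP90AA1 by -0.83, HSP90AB1 by -0.48 and TCP1 by -0.52. HSPA1A differed by -0.38 (adjusted p = 0.0315), a call that ended with upper-quartile scaling (adjusted p = 0.156) and without K562 library 1 or 2, any K562/IM library, labelled library 3 or K562+L library 1 or 2 (adjusted p from 0.0519 to 0.0826) and with the replicate block (0.0533). With the length and GC offset the difference for HSPA1A was -0.87 (adjusted p = 4.71e-07). CCT4 (-0.33, adjusted p = 0.0274) lost its call without K562 library 1 or 2, K562/IM library 2 or 3, labelled library 3 or K562+L library 2 (adjusted p from 0.0515 to 0.0841). Of the 30 calls 26 held under all 21 alternatives. HSPA1B (-0.19), HSPA6 (-0.38), BAG3 (0.05), DNAJB4 (0.10), HSPE1 (0.03) and PTGES3 (0.01) were not called, so that HSPE1 and PTGES3, which fell in each line, showed differences near 0. With that offset HSPE1 went to -0.90, HSPA1B to -0.63, BAG3 to -0.33, PTGES3 to -0.18 and HSPB1 from 0.95 to -0.41, each called as lower, HSF1 went from 0.69 to 0.01 (adjusted p = 0.952), and 28 genes of the set were lower. Over all genes 4874 were lower with the offset, rather than 4437. The comparisons of K562+L and of K562/IM share the K562 libraries, and those of K562/IM and of the labelled libraries share the K562/IM libraries, so that their values are set side by side without a test of likeness.

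**Figure D4:**
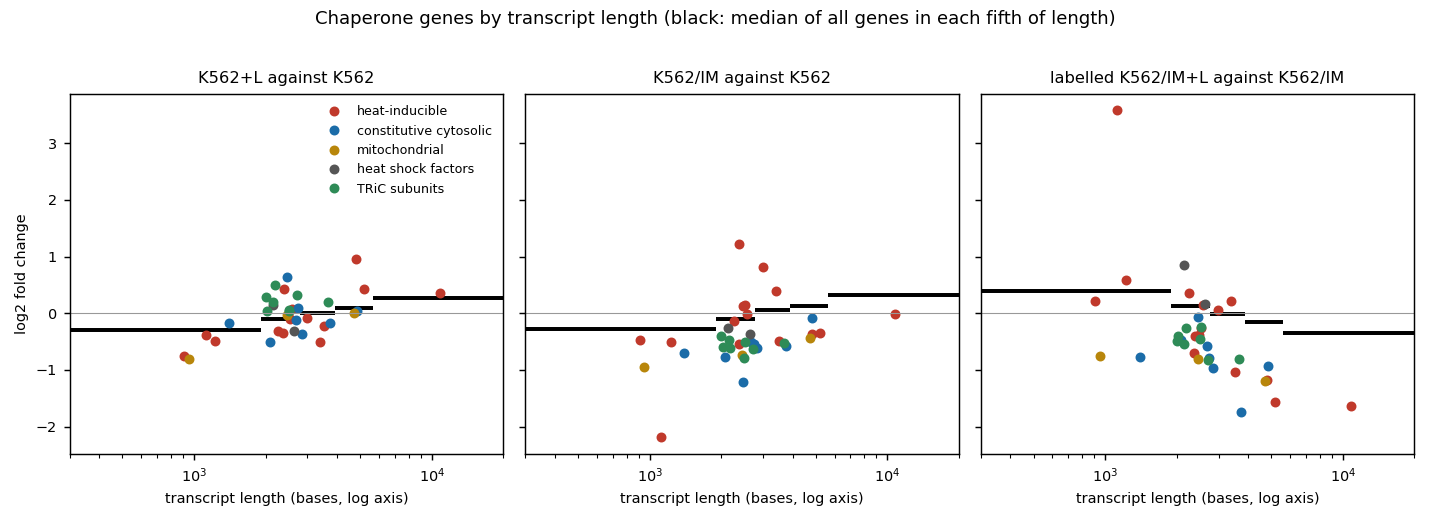
Log2 fold change (vertical axis) of the 36 genes against transcript length in bases (horizontal log axis) in 3 comparisons. Points are genes by class and black lines are medians of all tested genes in each of 5 bins of length. TRiC subunits, of 2005 to 3675 bases, lie below the black lines in K562/IM and in the labelled libraries, and HSPB1, HSPE1 and UBB lie in the shortest bin, whose median runs from -0.30 in K562+L to 0.39 in the labelled libraries.

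Genes of the same pathways outside the set were 74 in 5 lists. In K562+L 6 of 66 tested were higher and 14 lower, next to 18.2% and 19% of all genes. Of 11 tested among 13 further HSF1-linked genes, 2 rose and 1 fell. MRPL18, a mitochondrial ribosomal protein with a heat-responsive transcript, fell from 95.9 ± 6.81 to 70.6 ± 5.26 CPM (SD, n = 3). FNIP1, which slows the HSP90 ATPase, and BAG6, which guards membrane proteins, rose (0.50 and 0.31). BAG1, an exchange factor of HSP70, and NUDCD2 fell (-0.54 and -0.40). Of 23 tested HSP70 partners 2 were higher and 4 lower, and of 14 HSP90 cochaperones 2 and 3.

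In K562/IM against K562 10 of 65 tested were higher and 31 lower, next to 30.1% and 27.1% of all genes. Of the lists, 14 of 23 tested HSP70 partners and 5 of 14 HSP90 cochaperones were lower, and 2 of each were higher. PPID, an HSP90-bound cyclophilin, fell from 116 ± 2.14 to 63.4 ± 1.11 CPM (SD, n = 3; -0.87), DNAJC5 by 0.74 and BAG1 by 0.90 on the log2 scale. Of the further HSF1-linked genes 5 of 11 rose and 2 fell. IER5, which activates HSF1, rose from 71.6 ± 3.59 to 139 ± 5.51 CPM (SD, n = 3; 0.96, adjusted p = 3.3e-05). DNAJB5 went from 0.263 ± 0.185 to 10.2 ± 0.974 CPM and the extracellular chaperone CLU from 0.0358 ± 0.0619 to 2.10 ± 0.342 CPM (SD, n = 3), each from nearly no counts. In the labelled libraries DNAJB5 was at 0.0233 ± 0.0403 CPM (SD, n = 3).

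In the labelled libraries against K562/IM, 10 of 23 HSP70 partners were lower and 6 higher, 5 of 14 HSP90 cochaperones were lower and 0 higher, and of 11 further HSF1-linked genes 4 were lower and 4 higher. Of all genes 33.6% were lower and 33.2% higher, so that the counts of lower HSP90 cochaperones and of HSF1-linked genes were near that level. DNAJB2, a J-domain protein that hands ubiquitinated clients to the proteasome, rose from 4.86 ± 0.593 to 36.2 ± 3.63 CPM (SD, n = 3; 2.93, adjusted p = 1.6e-06) and DNAJC9, a histone chaperone, from 138 ± 3.72 to 222 ± 10.4 CPM (0.72). HSPA14, a ribosome-associated HSP70, fell from 97.8 ± 1.52 to 58.8 ± 1.34 CPM (SD, n = 3; -0.71), and DNAJA3, the J-domain partner of HSPA9, from 128 ± 3.98 to 82.5 ± 2.10 CPM (-0.60). Against K562, HSPA14 (-1.22), PPID (-1.12) and DNAJA3 (-1.16) were lower and DNAJB2 (3.82) was higher. In the interaction HSPA14 (-0.76) and DNAJC2, its ribosome partner (-0.78), were lower and DNAJB2 (2.90) was higher.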

How the data were processed

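RNA of 12 libraries, 3 in each of the parental and the IM-resistant line with or without lycorine, was sequenced from poly(A)-selected libraries, and samples were grouped by the cell line and treatment in their labels. The authors deposited whole-number read counts per gene symbol, without normalization, in 1 table of 19447 symbols. The submitters' processing notes name FastQC, STAR, StringTie, DESeq2 and hg38, and the annotation and the counting step are not given in the sources used here. Among the 23289 table entries between 1 and 25, 67.9% equalled a multiple of 4 or lay 1 above it, where even spacing gives 52%, so that counting noise may exceed what the totals (75093844 to 107344598) give.

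From the deposited counts, each pair of groups was filtered with filterByExpr (minimum count 10), scaled by TMM and fitted with the quasi-likelihood test of edgeR 4.0.16 in R 4.3.3, with Benjamini-Hochberg adjustment over all genes tested and no covariate. The interaction used all 12 libraries. A gene was called when its adjusted p was under 0.05, and a log2 fold change over 1 in size was counted besides. All 36 chosen genes passed the filter in every comparison. CPM used TMM factors over the 12 libraries. Transcript lengths, GC content and positions came from the longest basic transcript of GENCODE release 29 (GRCh38), and promoter windows from RefSeq (GRCh38.p14).

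The members, their classes and the pathway lists were chosen with earlier results of these data known. Library values are given for the 3 called members with the smallest p in each direction of each comparison and for HSPA1A, HSPA1B, HSPA6, DNAJB1, HSPH1, BAG3, HSPA8, HSP90AA1, HSP90AB1, CHORDC1, HSF1 and TCP1. Of the 74 pathway genes the 3 with the smallest p in each direction are named, and HSPA7 and AHSA2P were not analysed here. A gene that this rule would name is not reported here, and counts over the lists include it. Alternatives were DESeq2 1.42.0, RLE and upper-quartile scaling, other count filters, counts divided by 4, a fit of all 12 libraries, a replicate block, the omission of each library in turn, and, added after the data were seen, a lowess offset for transcript length and GC content with and without the block. On simulated counts without the offset, the fit of K562+L against K562 recovered 32 of 100 planted log2 changes of 0.6 and 82 of 100 of 1.2. The interaction fit recovered 10 and 57 of 100, so that a gene not called may still differ. Only 200 genes were changed in each simulation, of 12761 and 13735. In the data 37.3% and 61.7% of all genes were called in these comparisons, which shifts the p that adjustment lets pass. The rates therefore do not measure recovery in the data. An exact test of 3 against 3 libraries cannot give a p under 0.1, the labels give no batch or date, and groups of 3 were not searched for outlying libraries.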

Additional observations from a re-analysis of the deposited data

Results flagged for a closer look

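The lycorine effect in K562/IM, as labelled, differed from that in K562 for 30 of the 36 chaperone genes in edgeR's interaction test at an adjusted p under 0.05, a call that 61.7% of all genes tested shared. Values are differences of log2 fold changes, negative where the effect was lower in K562/IM. Among inducible genes these were CHORDC1 (-2.16), HSPH1 (-2.03), HSPA4L (-2.02), DNAJA1 (-0.84), HSP90AA1 (-0.83) and HSPA1A (-0.38). Among constitutive genes they were FKBP4 (-1.60), HSPA4 (-0.995), STIP1 (-0.90), HSPA8 (-0.72), CACYBP (-0.62), AHSA1 (-0.61) and HSP90AB1 (-0.48), and among mitochondrial genes HSPA9 (-1.22) and HSPD1 (-0.80). Among TRiC subunits they were CCT6A (-1.17), CCT5 (-1.03), CCT8 (-0.80), CCT2 (-0.78), CCT3 (-0.77), TCP1 (-0.52), CCT7 (-0.45) and CCT4 (-0.33). On the other side were CRYAB (3.94), UBB (1.04), HSPB1 (0.95), SERPINH1 (0.70), HSF1 (0.69), DNAJB1 (0.65) and HSF2 (0.47). With the length and GC offset these 7 differences were, in the same order, 3.04, 0.26, -0.41, 0.49, 0.01, 0.30 and 0.49. HSPB1 was then called as lower and HSF1 was not called. The genes named on the lower side stayed called as lower.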

How the results depend on the processing

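Leaving out 1 library at a time gave 6 to 9 higher and 3 to 9 lower chaperone genes in K562+L against K562, 3 to 5 higher in K562/IM against K562, and 4 to 7 higher in the labelled libraries against K562/IM. Over all genes, K562+L against K562 then had 1327 to 2891 higher and 1544 to 2932 lower calls, beside 2359 and 2462 with all libraries. Higher calls over all genes then ran from 3327 to 4510 in K562/IM against K562, beside 4029. In the labelled libraries against K562/IM they ran from 4052 to 4959, beside 4554. The mitochondrial median in K562+L ran from -0.071 to 0.027, the highest without K562+L library 1, beside -0.03.

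With the replicate block, K562+L against K562 had 5 lower chaperone genes, and 1488 higher and 1638 lower genes in all. The replicate numbers share no stated batch or culture. Deviations of libraries with the same number correlated from -0.639 to 0.13 over the 4 pairwise comparisons. In none of these did more than 2 of 6 libraries correlate best with their own number, so that the numbers were not taken as pairs. Groups not compared directly went higher. For numbers 1, 2 and 3 the correlations were -0.0441, 0.34 and 0.483 between K562+L and the labelled libraries. Between K562+L and K562/IM they were 0.0264, 0.172 and 0.054.

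With the length and GC offset, with and without the block, 12 chaperone genes were higher in K562+L and 5 in K562/IM, against K562, and the median of the heat shock factors in K562+L turned from -0.09 to 0.038. Over all genes the higher calls were then 2765 with the block and 3207 without it in K562+L, and 3969 and 4259 in K562/IM. HSPB1 in the labelled libraries against K562/IM turned to -0.55, and in the interaction BAG3 (-0.33), HSPB1 (-0.41), HSPE1 (-0.90) and PTGES3 (-0.18) turned lower. The cause was not tested. Upper-quartile scaling gave 7 higher chaperone genes in the labelled libraries against K562/IM, with 4889 higher genes in all rather than 4554. It moved the median of all genes to 0.17 against K562 and to 0.11 in the interaction.

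Calls held under all alternatives for 8 of 15 genes in K562+L, 25 of 28 in K562/IM, 26 of 30 in the labelled libraries against K562/IM, 27 of 29 against K562 and 26 of 30 in the interaction. Values called in neither fit changed sign 25, 11, 3, 8 and 11 times in the same order. With 3 libraries a group, and low counts near multiples of 4, differences at the level of HSPA6 or CRYAB rest on few reads.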

Other observations

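Prefoldin, which hands unfolded actin and tubulin to TRiC, and the phosducin-like helpers of TRiC were counted next. Of 10 genes tested, 0 were higher and 2 lower in K562+L, where 18.2% and 19% of all genes were, and 1 was higher and 7 lower in K562/IM (median log2 fold change -0.38), where 30.1% and 27.1% of all genes were. In the libraries labelled K562/IM+L 5 were higher and 1 lower than in K562/IM (median 0.21), where 33.2% and 33.6% of all genes were. Against K562, 3 were higher and 5 lower (median -0.26), where 28.2% and 27.8% of all genes were. CCT6B, a TRiC subunit of testis, went from 0.256 ± 0.0734 CPM in K562 to 3.12 ± 0.374 CPM in the labelled libraries (SD, n = 3; log2 fold change 3.58, edgeR adjusted p = 8.2e-05). PFDN5 was among the 3 genes with the smallest p on the higher side of the interaction (1.47). Values with the length and GC offset are not given for these 10 genes. The shortest of 5 length bins of all genes had medians of -0.29 in K562/IM against K562 and 0.39 in the labelled libraries against K562/IM. In the interaction that bin had a median of 0.65, and the part of length in these counts was not tested.

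Of 11 other small heat shock protein and heat shock factor genes, 8 were tested in K562+L, where 0 were higher and 4 lower, and 7 in K562/IM, where 0 were higher and 3 lower, to be read against the same shares of all genes. HSF4, a heat shock factor best known from the lens, rose from 27.9 ± 1.08 CPM in K562/IM to 48.0 ± 2.33 CPM in the labelled libraries (SD, n = 3; log2 fold change 0.81, adjusted p = 6.3e-05), next to 25.7 ± 1.80 CPM in K562. Its difference between the lycorine effects was 1.18 (adjusted p = 2.1e-05).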
